A study of Mus musculus with 8 samples.

Results

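The genes of glycolysis and of the response to low oxygen were followed in RNA from sorted mouse eosinophils. They were taken by symbol: 24 genes of glucose uptake, glycolysis and lactate handling (18 enzymes, 2 PFKFB enzymes that set the pace of the pathway and 4 transporters) and 15 genes of the hypoxia response (4 regulators and 11 targets), 39 of the 54446 genes counted. The study profiled eosinophils of a mouse asthma model, with lung named in its title, by CEL-Seq, which reads transcripts near their 3' ends after linear amplification. Its 8 libraries, all from strain C57BL/6, fall into 3 groups of sorted eosinophils: SiglecFhi/CD101+ (n = 2), Siglec-Fint/CD101- (n = 2) and resident (n = 4, replicates 3 to 6). Siglec-F, a lectin that binds sialic acids, and CD101, a membrane protein with immunoglobulin domains, are the surface proteins of the sort. The labels used here give no treatment, genotype, age or sex, nor whether each replicate is its own mouse, so every p-value here reflects only how these samples scatter, and that scatter may be technical.

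Glycolysis splits glucose into pyruvate, with hexokinase, phosphofructokinase and pyruvate kinase as its controlled steps, and lactate dehydrogenase turns pyruvate into lactate. With ample oxygen, the EGLN prolyl hydroxylases mark the HIF alpha subunits for destruction. When oxygen falls, HIF alpha pairs with ARNT, binds short ACGTG or GCGTG elements and raises transcription of many glycolytic genes and of genes for vessel growth and mitochondrial removal. Granulocytes draw much of their energy from glycolysis.

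Resident libraries held 5600610 to 11583550 counts and subset libraries 1513517 to 3109428. Transcripts of the mitochondrial genome took 38.6% to 61.8% of resident and 69.9% to 83.9% of subset counts, which left 2137819 to 5296468 and 444902 to 552121 other counts per library. Levels are given as CPM, with library sizes scaled by TMM. Transcripts that define eosinophils were scarce: Epx (eosinophil peroxidase) had 25 counts, all in resident replicate 5, and Il5ra (the IL-5 receptor alpha chain) 58, all in resident libraries. Prg2, the major basic protein gene, was at 4.93 to 15.8 CPM in resident, 0.724 and 1.85 CPM in Siglec-Fint/CD101- and 38.5 and 234 CPM in SiglecFhi/CD101+ libraries. Siglecf was at 4.26 to 43.7, 0 and 0, and 10.02 and 26.7 CPM in the same order. Cd101 was at 4.19 to 33.4, 0 and 0.618, and 1.06 and 0.607 CPM, so its transcript did not part the libraries labelled CD101+ from those labelled CD101-. The 6 eosinophil markers summed to 19.0 to 77.5 CPM in resident, 0.724 and 22.9 CPM in Siglec-Fint/CD101- and 53.8 and 261 CPM in SiglecFhi/CD101+ libraries. Other cell types' markers were present: epithelial ones summed to 1016 to 13629 CPM in resident and 4852 to 7911 CPM in subset libraries, endothelial and fibroblast ones to 161 to 1002 and 671 to 949, red cell and platelet ones to 991 to 9747 and 2679 to 7642, macrophage ones to 212 to 581 and 154 to 674, dendritic cell ones to 179.7 to 416 and 105 to 211, and neutrophil ones to 11.58 to 91.1 and 39.8 to 118. T and NK cell markers (9 to 19.3 CPM in resident, 60.1 to 156 CPM in subset libraries) and B and plasma cell markers (32.6 to 147 and 164 to 349 CPM) did not overlap between resident and subset libraries. The T and NK sums of subset libraries came mostly from Cd4 and Trac. Cd4 was at 0 and 144 CPM in Siglec-Fint/CD101- and 73.9 and 57.7 CPM in SiglecFhi/CD101+ libraries, and Trac at 105 and 0, and 64.4 and 0 CPM. Nkg7 went the other way, at 4.12 to 9.86 CPM in resident and 0 to 1.24 CPM in subset libraries. No marker of these 9 lists passed edgeR's test in any comparison. The part of other cells' RNA in the levels below was not tested, and in bulk samples fewer cells of a type and less RNA per cell cannot be told apart.

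Glycolytic transcripts were present in all 3 groups at overlapping summed levels. The 18 enzymes summed to 1161, 1567, 1195 and 1339 CPM in resident, 1638 and 756 CPM in Siglec-Fint/CD101- and 1276 and 918 CPM in SiglecFhi/CD101+ libraries. As CPM of the counts outside the mitochondrial genome they summed to 3266 to 4029, to 4955 and 2542, and to 4379 and 3401, and the groups overlapped again. Of the 24 glycolytic genes 22 to 24 had a count in a resident library and 18 to 21 in a subset library. Of the 15 hypoxia genes these numbers were 10 to 13 and 8 to 11. With each library thinned to 1513517 counts, resident libraries showed 21 to 24 and 10 to 13 of them, while the thinned libraries still differed in their mitochondrial share.

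**Figure D1:**
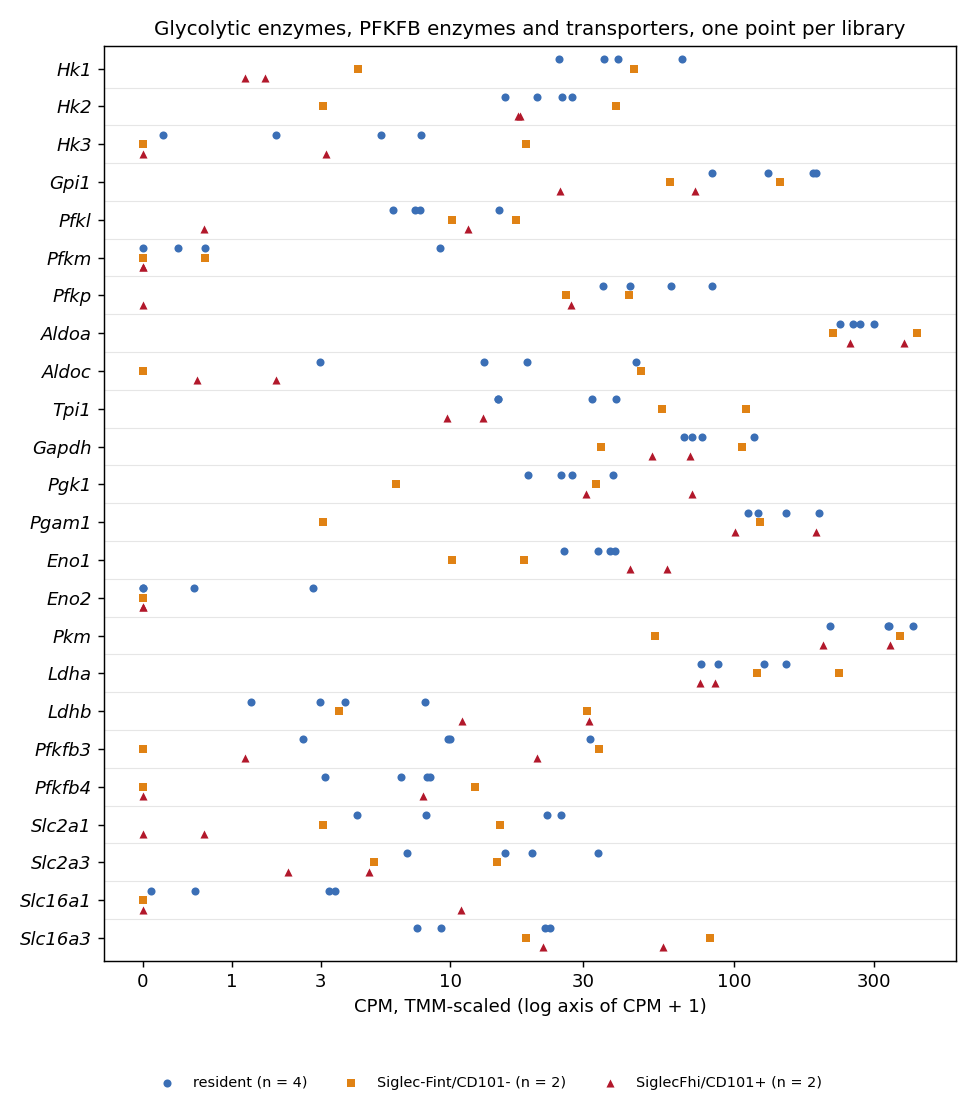
Level of each of the 24 glycolytic genes in each library, in TMM-scaled CPM on a log axis of CPM + 1; each point is 1 library, and colour and shape give the group. Aldoa lies at 217 to 418 CPM in every library, while Hk1, Slc2a1 and Slc2a3 have both SiglecFhi/CD101+ libraries below all 4 resident ones.

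Of the 39 genes 34 passed the filter on low counts and were tested (22 glycolytic, 12 hypoxia). The others were Pfkm, Eno2 and Adm, with 152, 49 and 8 counts in all, and Ankrd37 and Ak4, with 0 counts in every library. No gene of the 34 passed edgeR's quasi-likelihood test with a Benjamini-Hochberg adjusted p under 0.05. Among all genes the background was 0.0254% of the 11828 genes tested in SiglecFhi/CD101+ against resident libraries, 0.0592% in Siglec-Fint/CD101- against resident libraries and 0.00845% between the subsets. At an unadjusted p under 0.05, 6 of 34 were lower and 0 higher in SiglecFhi/CD101+ than in resident libraries (background 13.1% lower and 3.65% higher). In Siglec-Fint/CD101- against resident libraries 1 was lower and 0 higher (13.8% and 1.9%), and in SiglecFhi/CD101+ against Siglec-Fint/CD101- libraries 4 were lower and 0 higher (7.96% and 9.98%). DESeq2 called 2, 1 and 3 of the genes (background 8.84%, 6.62% and 13.9%) and limma-voom 0 in each comparison. The 6 lower genes make 17.6% of 34, near the background of 13.1%, and the DESeq2 shares of 5.88%, 2.94% and 9.09% lie below theirs. The levels below therefore did not pass edgeR's test, and both comparisons with resident libraries share the same 4 libraries.

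In SiglecFhi/CD101+ against resident libraries the median log2 fold change was -0.44 over the 22 glycolytic and -1.70 over the 12 hypoxia genes, beside -0.72 over all genes tested and -0.40 over those at or above the median level. In Siglec-Fint/CD101- against resident libraries the medians were -0.17 and -0.34, beside -0.997 and -0.34. Between the subsets they were -0.64 and -0.37, beside 0 and -0.08. With genes at 0 counts in a group set to their bounds, the glycolytic and hypoxia medians were unchanged and those of all genes were -0.65, -0.71 and 0. RLE scaling gave glycolytic medians of 0.03 and 0.20 against resident libraries, beside -0.26 and -0.63 for all genes. Against resident the glycolytic medians thus lay above those of all genes under both scalings. Under TMM the SiglecFhi/CD101+ one did not lie above that of genes at or above the median level (-0.44 and -0.40). Between the subsets the glycolytic median under TMM lay below both references (-0.64 beside 0 and -0.08). With 1 library left out, the glycolytic median against resident ranged from -0.94 to -0.28 for SiglecFhi/CD101+ and from -1.34 to 0.07 for Siglec-Fint/CD101- libraries. The median of all genes reached -3.15 and -4.42 in such fits.

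**Figure D2:**
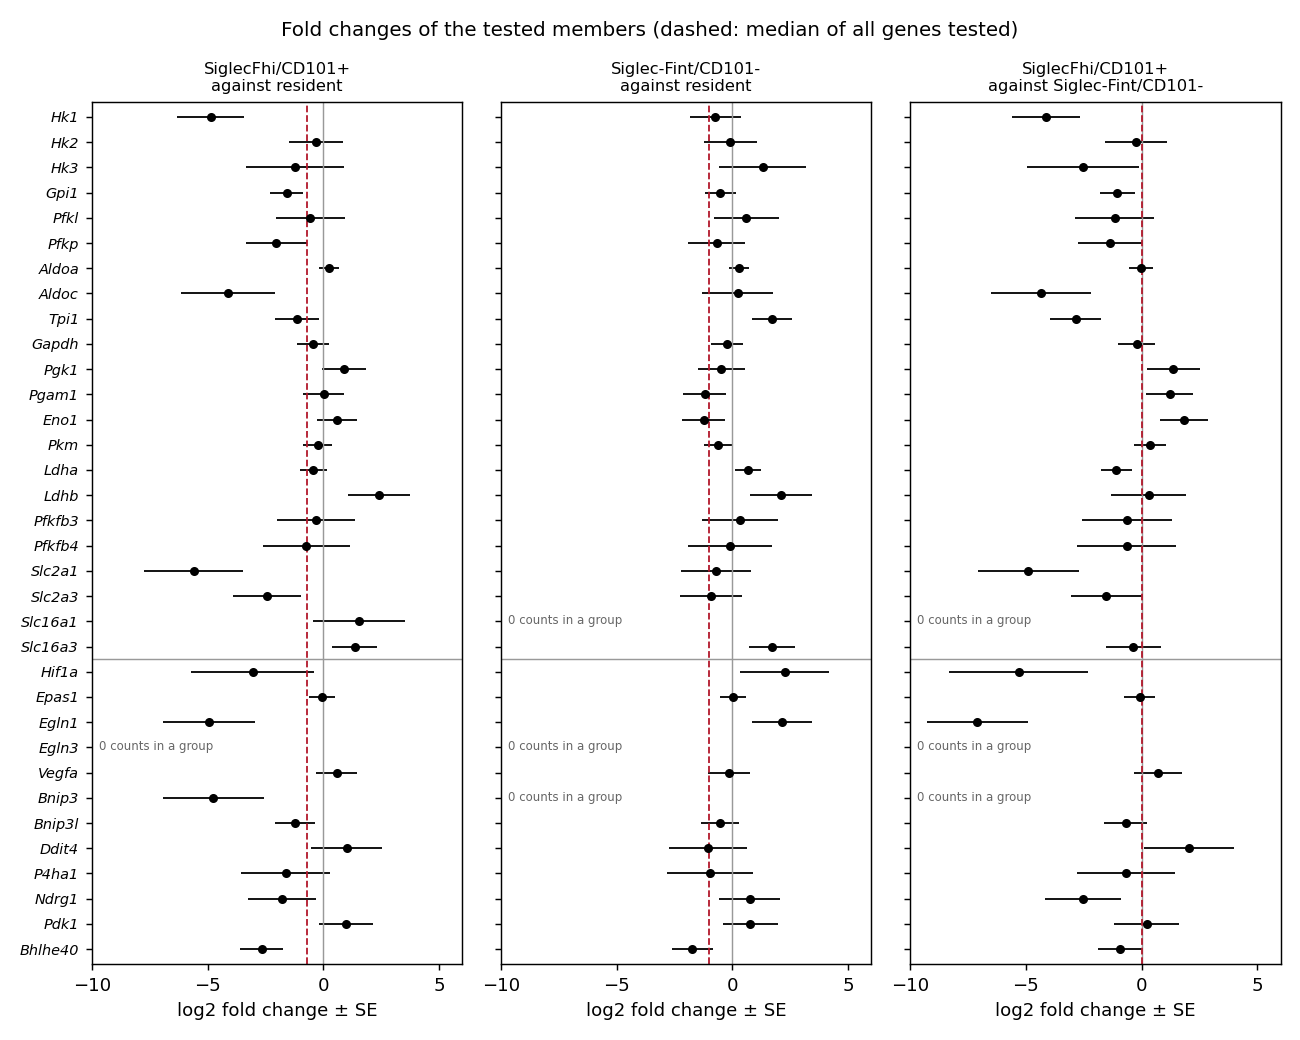
Log2 fold change with its standard error (SE) for the 34 tested genes in the 3 comparisons; the dashed line is the median of all genes tested, and the horizontal line parts glycolytic (above) from hypoxia genes. In SiglecFhi/CD101+ against resident libraries Hk1, Slc2a1, Egln1, Bnip3 and Aldoc lie at -4.11 or lower, Aldoa and Epas1 lie near 0 in each panel, and genes with 0 counts in a compared group carry no point.

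The ranges of the groups were also compared. In SiglecFhi/CD101+ libraries 11 of 34 genes lay below every resident library (background 27.4%): Hk1, Gpi1, Pfkp, Aldoc, Tpi1, Slc2a1, Slc2a3, Egln1, Bnip3, Bnip3l and Bhlhe40. Eno1 and Ldhb lay above (2 of 34, background 6.78%). In Siglec-Fint/CD101- libraries Eno1, Slc16a1 and Bnip3 lay below every resident library (3 of 34, background 29.3%) and Tpi1 above (1 of 34, 4.46%). Slc16a1 had 0 counts there, where 3 counts would be 2.17 and 1.85 CPM. Resident replicates 3 and 6, at 0.499 and 0.0662 CPM, lay below that level, so depth limits this placing. Both SiglecFhi/CD101+ libraries lay below both Siglec-Fint/CD101- libraries for Hk1, Tpi1, Ldha, Slc2a1, Slc2a3 and Egln1 (6 of 34, 11.9%) and above them for Eno1 and Vegfa (2 of 34, 15.8%).

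Glucose enters through Slc2a1 (GLUT1; ENSMUSG00000028645, chr4:119108711-119137983, plus strand) and Slc2a3 (GLUT3), both lower in the SiglecFhi/CD101+ than in any resident library. Slc2a1 was at 4.32, 25.2, 8.09 and 22.4 CPM in resident, 15.2 and 3.09 CPM in Siglec-Fint/CD101- and 0 and 0.607 CPM in SiglecFhi/CD101+ libraries. Its single count over the SiglecFhi/CD101+ libraries stands against 802 over the resident ones. Pooled, the resident level was 58.9-fold (exact 95% counting interval 10.5 to 2329) that of SiglecFhi/CD101+ libraries; such intervals cover counting error only. The log2 fold change was -5.60 ± 2.14 SE, adjusted p = 0.239, and DESeq2 gave an adjusted p of 0.0475. Against Siglec-Fint/CD101- libraries it was -4.88 ± 2.18 SE, adjusted p = 0.266, and the subsets did not overlap. Slc2a3 was at 19.8, 33.7, 6.84 and 15.9 CPM in resident, 5.07 and 14.8 CPM in Siglec-Fint/CD101- and 2.11 and 4.86 CPM in SiglecFhi/CD101+ libraries. The SiglecFhi/CD101+ libraries, with 12 counts together, were lowest, at a log2 change from resident of -2.45 ± 1.47 SE, adjusted p = 0.391.

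Hexokinase traps glucose by phosphorylation. Hk1, the widely expressed form (ENSMUSG00000037012, chr10:62268855-62379908, minus strand), was at 65.9, 24.6, 39.8 and 35.6 CPM in resident, 4.34 and 45.1 CPM in Siglec-Fint/CD101- and 1.58 and 1.21 CPM in SiglecFhi/CD101+ libraries. Every resident library lay above both SiglecFhi/CD101+ libraries. Siglec-Fint/CD101- replicate 1 lay below the resident range and replicate 2 inside it. The group means were 41.5 ± 17.5 (SD, n = 4), 24.7 ± 28.8 (SD, n = 2), 1.40 ± 0.261 (SD, n = 2) CPM, in the order resident, Siglec-Fint/CD101- and SiglecFhi/CD101+. The pooled resident level was 26.7-fold (exact 95% counting interval 11.4 to 82.4) that of SiglecFhi/CD101+ libraries, from 1820 and 5 counts, with a log2 change of -4.87 ± 1.45 SE, adjusted p = 0.175. DESeq2 gave an adjusted p of 0.00645, and without Siglec-Fint/CD101- replicate 1 edgeR's was 0.0499, the only call among these genes with 1 library left out. In SiglecFhi/CD101+ against Siglec-Fint/CD101- libraries it was -4.13 ± 1.47 SE, adjusted p = 0.239, and DESeq2 gave 0.0251. Hk2, the inducible form, was at 25.3, 27.5, 15.9 and 20.7 CPM in resident, 39.1 and 3.09 CPM in Siglec-Fint/CD101- and 17.9 and 17.6 CPM in SiglecFhi/CD101+ libraries. It showed no such gap, with a log2 change of -0.33 ± 1.17 SE, adjusted p = 0.920 in SiglecFhi/CD101+ against resident libraries. Hk3, the form of myeloid cells, was at 0.166, 5.40, 1.81 and 7.74 CPM in resident, 18.8 and 0 CPM in Siglec-Fint/CD101- and 3.17 and 0 CPM in SiglecFhi/CD101+ libraries, and the groups overlapped.

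Of all hexokinase counts Hk1 took 72.1%, 42.8%, 69.2% and 55.6% in resident libraries, 6.98% and 93.6% for Siglec-Fint/CD101- and 6.98% and 6.45% for SiglecFhi/CD101+. In SiglecFhi/CD101+ replicates 1 and 2 the share was 6.98% (3 of 43 counts; exact Clopper-Pearson 95% interval 1.46% to 19.1%) and 6.45% (2 of 31 counts; exact Clopper-Pearson 95% interval 0.791% to 21.4%). The Siglec-Fint/CD101- libraries split, at 6.98% (6 of 86 counts; exact Clopper-Pearson 95% interval 2.60% to 14.6%) in replicate 1 and 93.6% (73 of 78 counts; exact Clopper-Pearson 95% interval 85.7% to 97.9%) in replicate 2. Hk2 took 27.7%, 47.8%, 27.6% and 32.3% in resident libraries, 62.8% and 6.41% for Siglec-Fint/CD101- and 79.1% and 93.5% for SiglecFhi/CD101+. The Hk1 share thus lay below every resident library in both SiglecFhi/CD101+ libraries, and 1 Siglec-Fint/CD101- library lay on either side of the resident range. No test was made: an exact permutation test of 4 against 2 libraries cannot go below 0.0667.

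**Figure D3:**
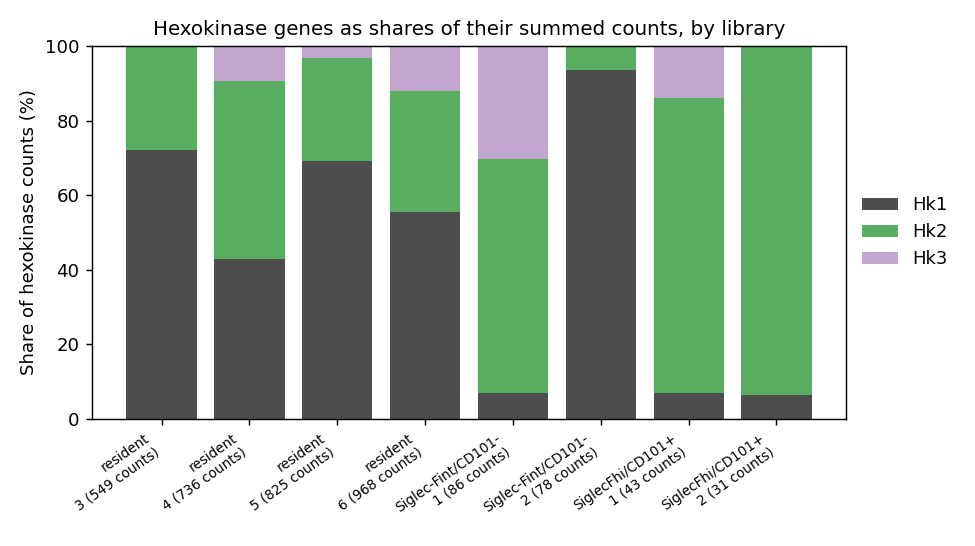
Hk1, Hk2 and Hk3 as percent of the summed hexokinase counts in each library, stacked to 100%; the number of hexokinase counts stands under each bar. Hk1 takes 42.8% to 72.1% in resident libraries, 6.98% and 6.45% in SiglecFhi/CD101+ libraries and 6.98% and 93.6% in Siglec-Fint/CD101- libraries.

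Gpi1 turns glucose 6-phosphate into fructose 6-phosphate. It was at 189.8, 185, 83.8 and 130.3 CPM in resident, 143 and 59.9 CPM in Siglec-Fint/CD101- and 73.3 and 24.9 CPM in SiglecFhi/CD101+ libraries. The SiglecFhi/CD101+ values lay below the resident range, at -1.58 ± 0.71 SE, adjusted p = 0.282. Phosphofructokinase, the committing step, came mostly from Pfkp, the platelet form, in resident libraries (80.0% to 85.1% of the counts of its genes), and Pfkp was at 83.7, 43.7, 35.2 and 60.7 CPM in resident, 26.0 and 43.3 CPM in Siglec-Fint/CD101- and 0 and 27.3 CPM in SiglecFhi/CD101+ libraries. Neither SiglecFhi/CD101+ library reached the resident range, at -2.03 ± 1.31 SE, adjusted p = 0.419, and replicate 1 had 0 counts. The liver form Pfkl was at 15.1, 7.35, 7.67 and 6.02 CPM in resident, 10.1 and 17.3 CPM in Siglec-Fint/CD101- and 11.61 and 0.607 CPM in SiglecFhi/CD101+ libraries, and the groups overlapped. Of the PFKFB enzymes, which make the activator of phosphofructokinase, Pfkfb3 ranged from 2.49 to 31.6 CPM in resident libraries and Pfkfb4 from 3.13 to 8.40, and in both genes the groups overlapped.

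Aldolase splits the sugar into triose phosphates. Aldoa, with Pkm and Epas1 among the 3 highest genes by CPM, was at 230.0, 298, 269 and 254 CPM in resident, 418 and 217 CPM in Siglec-Fint/CD101- and 378 and 249 CPM in SiglecFhi/CD101+ libraries. The groups overlapped, and SiglecFhi/CD101+ against resident gave 0.25 ± 0.44 SE, adjusted p = 0.810. Aldoc, the brain-type aldolase, was at 2.99, 45.9, 19.0 and 13.3 CPM in resident, 0 and 47.6 CPM in Siglec-Fint/CD101- and 0.528 and 1.82 CPM in SiglecFhi/CD101+ libraries. Both SiglecFhi/CD101+ libraries lay below the resident range (-4.11 ± 2.03 SE, adjusted p = 0.316), but the Siglec-Fint/CD101- libraries held 0 and 77 counts. The log2 change of -4.34 ± 2.15 SE, adjusted p = 0.292 between the subsets became 6.07 without Siglec-Fint/CD101- replicate 2. Tpi1, triose phosphate isomerase (ENSMUSG00000023456, chr6:124810586-124814296, minus strand), was at 14.97, 32.2, 39.2 and 14.96 CPM in resident, 109 and 56.2 CPM in Siglec-Fint/CD101- and 13.2 and 9.71 CPM in SiglecFhi/CD101+ libraries. It was the one gene with both Siglec-Fint/CD101- libraries above every resident library, at 1.71 ± 0.85 SE, adjusted p = 0.333. Between the subsets it was -2.85 ± 1.11 SE, adjusted p = 0.243, and DESeq2 gave 0.0235.

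In the lower pathway, all enzymes but Eno1 overlapped between SiglecFhi/CD101+ and resident libraries. Gapdh was at 77.5, 117, 67.3 and 71.5 CPM in resident, 106 and 34.6 CPM in Siglec-Fint/CD101- and 70.2 and 52.2 CPM in SiglecFhi/CD101+ libraries, and the groups overlapped. Of the 251 words of 50 bases in the last 300 bases of its transcript, 82.9% occur in other genes, mostly pseudogenes, so its counts are uncertain. Pgam1, phosphoglycerate mutase, was at 111, 194, 120.1 and 150.5 CPM in resident, 122 and 3.09 CPM in Siglec-Fint/CD101- and 189 and 101 CPM in SiglecFhi/CD101+ libraries. One Siglec-Fint/CD101- library stood far below all others, on 5 counts. Eno1, the common enolase, was at 33.9, 25.7, 38.7 and 37.2 CPM in resident, 10.1 and 18.5 CPM in Siglec-Fint/CD101- and 58.6 and 43.7 CPM in SiglecFhi/CD101+ libraries. It lay above the resident range in SiglecFhi/CD101+ (0.59 ± 0.86 SE, adjusted p = 0.763) and below it in Siglec-Fint/CD101- libraries (-1.24 ± 0.93 SE, adjusted p = 0.488), but 90.0% of the same kind of words are shared with Eno1b. Pgk1 ranged from 19.1 to 38.1 CPM in resident libraries and was at 33.3 and 6.18 CPM in Siglec-Fint/CD101- and 30.6 and 71.6 CPM in SiglecFhi/CD101+ libraries, which overlapped it. Pkm, pyruvate kinase, was at 212, 405, 336 and 333 CPM in resident, 366 and 53.1 CPM in Siglec-Fint/CD101- and 340.3 and 201 CPM in SiglecFhi/CD101+ libraries. The groups overlapped, at -0.25 ± 0.61 SE, adjusted p = 0.877 and -0.62 ± 0.62 SE, adjusted p = 0.618 against resident.

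Lactate dehydrogenase A favours lactate formation and B the reverse. Ldha was at 76.7, 126, 88.1 and 149.8 CPM in resident, 227 and 119.9 CPM in Siglec-Fint/CD101- and 76.5 and 85.6 CPM in SiglecFhi/CD101+ libraries. The SiglecFhi/CD101+ values lay below both Siglec-Fint/CD101- values (-1.10 ± 0.67 SE, adjusted p = 0.379) and overlapped the resident ones. Ldhb was at 2.99, 1.33, 8.02 and 3.84 CPM in resident, 3.62 and 30.9 CPM in Siglec-Fint/CD101- and 11.1 and 31.6 CPM in SiglecFhi/CD101+ libraries. This placed SiglecFhi/CD101+ libraries above the resident range, at 2.39 ± 1.33 SE, adjusted p = 0.357. Of the summed counts of both genes Ldhb took 3.76%, 1.04%, 8.35% and 2.50% in resident libraries, 1.57% and 20.5% for Siglec-Fint/CD101- and 12.7% and 26.9% for SiglecFhi/CD101+. Slc16a3 (MCT4), the lactate exporter of glycolytic cells, was at 7.48, 22.1, 9.21 and 23.0 CPM in resident, 18.8 and 82.2 CPM in Siglec-Fint/CD101- and 21.6 and 57.1 CPM in SiglecFhi/CD101+ libraries, and the groups overlapped (1.71 ± 0.98 SE, adjusted p = 0.372 in Siglec-Fint/CD101- against resident). Slc16a1 (MCT1) had 96 counts over the resident libraries, 0 in Siglec-Fint/CD101- and 18 in SiglecFhi/CD101+ libraries, all in replicate 2.

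Among the hypoxia regulators, Hif1a, the HIF-1 alpha subunit, was at 0, 3.83, 0.419 and 5.96 CPM in resident, 24.6 and 0 CPM in Siglec-Fint/CD101- and 0 and 0.607 CPM in SiglecFhi/CD101+ libraries. Counts were few (145, 34 and 1 in the 3 groups), the groups overlapped, and no difference was detectable at this depth. Epas1, the HIF-2 alpha subunit, which lung endothelium expresses strongly, was at 325, 133, 537 and 167 CPM in resident, 179 and 413 CPM in Siglec-Fint/CD101- and 297 and 262 CPM in SiglecFhi/CD101+ libraries. The groups overlapped, and SiglecFhi/CD101+ against resident gave -0.06 ± 0.57 SE, adjusted p = 0.9749. Its resident values ran with the summed endothelial and fibroblast markers, at 425, 161, 1002 and 339 CPM in replicates 3 to 6. The sums were 671 and 740 CPM in Siglec-Fint/CD101- and 949 and 782 CPM in SiglecFhi/CD101+ libraries. Siglec-Fint/CD101- replicate 1 thus had a higher sum than resident replicate 3 but less Epas1. The relation to this sum did not extend over all libraries, but the sum includes fibroblast genes. Of its endothelial genes, Pecam1 was higher in Siglec-Fint/CD101- replicate 1 than in resident replicate 3 (148 and 105 CPM). Cdh5, Kdr and Cldn5 were not (24.6, 21.0 and 35.5 CPM, against 62.5, 25.9 and 35.9 CPM). The part of endothelial cells and fibroblasts was not tested. Egln1, the main oxygen-sensing hydroxylase (ENSMUSG00000031987, chr8:124908587-124949324, minus strand), was at 8.48, 6.42, 15.4 and 5.82 CPM in resident, 76.0 and 4.33 CPM in Siglec-Fint/CD101- and 0.528 and 0 CPM in SiglecFhi/CD101+ libraries. Both SiglecFhi/CD101+ libraries lay below all others, with 1 count in all. The log2 changes were -4.95 ± 1.98 SE, adjusted p = 0.249 against resident and -7.09 ± 2.18 SE, adjusted p = 0.239 against Siglec-Fint/CD101- libraries, where DESeq2 gave 0.00813. In Siglec-Fint/CD101- against resident libraries it was 2.15 ± 1.29 SE, adjusted p = 0.390, and -1.11 without Siglec-Fint/CD101- replicate 1. Egln3 had 385 counts over the resident libraries, 345 of them in replicate 5, 40 in replicate 6 and 0 in replicates 3 and 4, and 0 in every subset library. The subset libraries thus stood level with 2 resident libraries, and the adjusted p was 0.358 for Siglec-Fint/CD101- and 0.340 for SiglecFhi/CD101+ against resident.

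**Figure D4:**
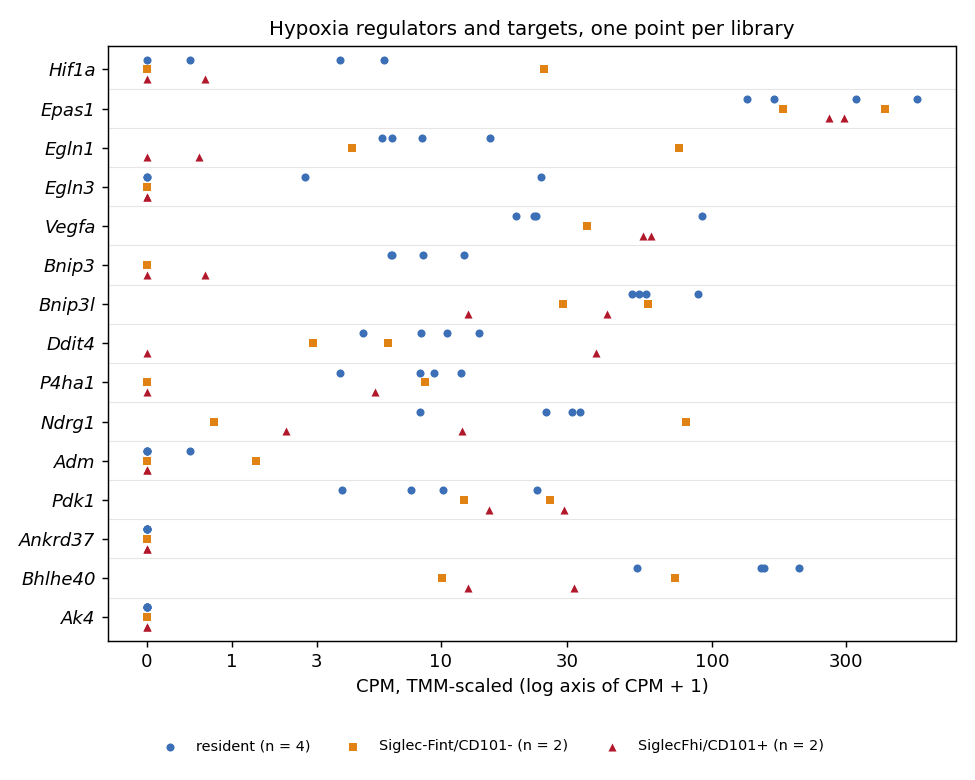
Level of each of the 15 hypoxia genes in each library, in TMM-scaled CPM on a log axis of CPM + 1; each point is 1 library, and colour and shape give the group. Epas1 is highest, Bnip3 lies at 6.35 to 12.3 CPM in resident and at 0 to 0.607 CPM in subset libraries, and Egln1 is lowest in SiglecFhi/CD101+ libraries.

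Promoters are shown for Bnip3, Egln1, Hk1 and Slc2a1, the 4 genes with the lowest log2 change from resident to SiglecFhi/CD101+ libraries among those with a count in both groups. They are RefSeq GRCm38.p6 windows from 250 bases before to 50 after the start, printed 5' to 3', with ACGTG or GCGTG on either strand in capitals (CACGT or CACGC as printed where the match is on the other strand); overlapping matches count separately. They lie at chr7:138909457-138909756 (minus strand, 5 matches) for Bnip3, chr8:124949205-124949504 (minus strand, 2 matches) for Egln1, chr10:62340372-62340671 (minus strand, 5 matches) for Hk1, the one of its 2 windows with matches, and chr4:119108495-119108794 (plus strand, 2 matches) for Slc2a1.

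Bnip3: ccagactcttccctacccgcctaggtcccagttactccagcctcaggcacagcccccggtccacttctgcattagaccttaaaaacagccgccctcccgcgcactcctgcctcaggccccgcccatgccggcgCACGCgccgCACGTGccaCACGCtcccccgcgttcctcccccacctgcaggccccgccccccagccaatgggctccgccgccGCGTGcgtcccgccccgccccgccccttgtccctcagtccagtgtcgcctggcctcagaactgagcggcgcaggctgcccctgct
Egln1: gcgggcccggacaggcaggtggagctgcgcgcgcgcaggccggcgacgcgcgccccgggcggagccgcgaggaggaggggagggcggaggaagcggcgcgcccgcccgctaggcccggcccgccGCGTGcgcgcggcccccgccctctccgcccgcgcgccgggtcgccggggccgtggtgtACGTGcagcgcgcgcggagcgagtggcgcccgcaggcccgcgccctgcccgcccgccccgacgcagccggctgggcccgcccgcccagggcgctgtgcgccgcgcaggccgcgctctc
Hk1: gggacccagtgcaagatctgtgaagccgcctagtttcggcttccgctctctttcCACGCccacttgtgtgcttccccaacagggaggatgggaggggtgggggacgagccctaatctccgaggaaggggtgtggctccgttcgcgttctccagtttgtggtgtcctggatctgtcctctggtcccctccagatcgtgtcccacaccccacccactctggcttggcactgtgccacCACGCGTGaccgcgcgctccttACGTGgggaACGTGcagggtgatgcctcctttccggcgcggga
Slc2a1: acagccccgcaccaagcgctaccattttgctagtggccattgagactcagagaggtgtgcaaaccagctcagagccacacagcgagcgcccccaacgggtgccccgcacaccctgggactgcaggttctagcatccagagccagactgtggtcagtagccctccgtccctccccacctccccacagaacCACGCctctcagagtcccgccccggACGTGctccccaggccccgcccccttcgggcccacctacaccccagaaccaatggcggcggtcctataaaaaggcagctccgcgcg

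Of the 39 genes 34 had a window in the table, and 31 of them (91.2%) held 1 of the 2 motifs in at least 1 window, against 12628 of 27025 genes (46.7%). Over windows it was 42 of 51 (82.4%) against 14380 of 32851 (43.8%). The windows of the genes were also richer in G and C, at a median of 63.3% against 52.7%. Gpi1, Tpi1 and Eno2 held neither motif in their windows. A match describes letters and no site.

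Among the targets Bnip3, a mitochondrial receptor for mitophagy (ENSMUSG00000078566, chr7:138890836-138909519, minus strand), had nearly all its counts in resident libraries. It was at 12.3, 8.53, 6.35 and 6.42 CPM in resident, 0 and 0 CPM in Siglec-Fint/CD101- and 0 and 0.607 CPM in SiglecFhi/CD101+ libraries. Every resident library lay above every subset library. Against 371 resident counts, the Siglec-Fint/CD101- libraries held 0, at least 7.69-fold lower (adjusted p = 0.288; DESeq2 0.0441). The SiglecFhi/CD101+ libraries held 1, and the pooled resident level was 27.2-fold (exact 95% counting interval 4.86 to 1079) theirs, with a log2 change of -4.76 ± 2.17 SE, adjusted p = 0.293. Its relative Bnip3l ranged from 51.5 to 89.1 CPM in resident libraries and was at 28.9 and 58.7 CPM in Siglec-Fint/CD101- and 41.7 and 12.7 CPM in SiglecFhi/CD101+ libraries, below the resident range in both SiglecFhi/CD101+ libraries (-1.22 ± 0.85 SE, adjusted p = 0.461).

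Bhlhe40, a transcriptional repressor, was at 154, 204, 53.8 and 149 CPM in resident, 10.1 and 73.5 CPM in Siglec-Fint/CD101- and 31.7 and 12.7 CPM in SiglecFhi/CD101+ libraries (ENSMUSG00000030103, chr6:108660629-108666925, plus strand). Both SiglecFhi/CD101+ libraries lay below the resident range, and the Siglec-Fint/CD101- libraries reached into it. The log2 fold changes from resident were -2.66 ± 0.93 SE, adjusted p = 0.223 and -1.74 ± 0.88 SE, adjusted p = 0.335. Vegfa, the vessel growth factor, ranged from 19.3 to 91.9 CPM in resident libraries and was at 35.5 and 35.2 CPM in Siglec-Fint/CD101- and 56.5 and 60.1 CPM in SiglecFhi/CD101+ libraries. Its resident maximum was in replicate 5, which also held the highest epithelial sum. Replicate 3, with an epithelial sum of 6004 CPM, had 22.6 CPM of Vegfa, level with the 19.3 and 23.0 CPM of replicates 4 and 6, whose epithelial sums were 1016 and 1494 CPM. Most of the replicate 3 sum came from Scgb1a1, a club cell gene, at 4310 CPM. Scgb1a1 was at 498, 7526 and 516 CPM in replicates 4 to 6, so the sums differ in makeup. The part of epithelial RNA in Vegfa was not tested. Pdk1, which brakes pyruvate oxidation, ranged from 3.91 to 23.2 CPM in resident and was at 12.3 and 26.0 CPM in Siglec-Fint/CD101- and 15.3 and 29.1 CPM in SiglecFhi/CD101+ libraries, which overlapped it. Ndrg1, Ddit4 and P4ha1 also overlapped between all groups.

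**Figure D5:**
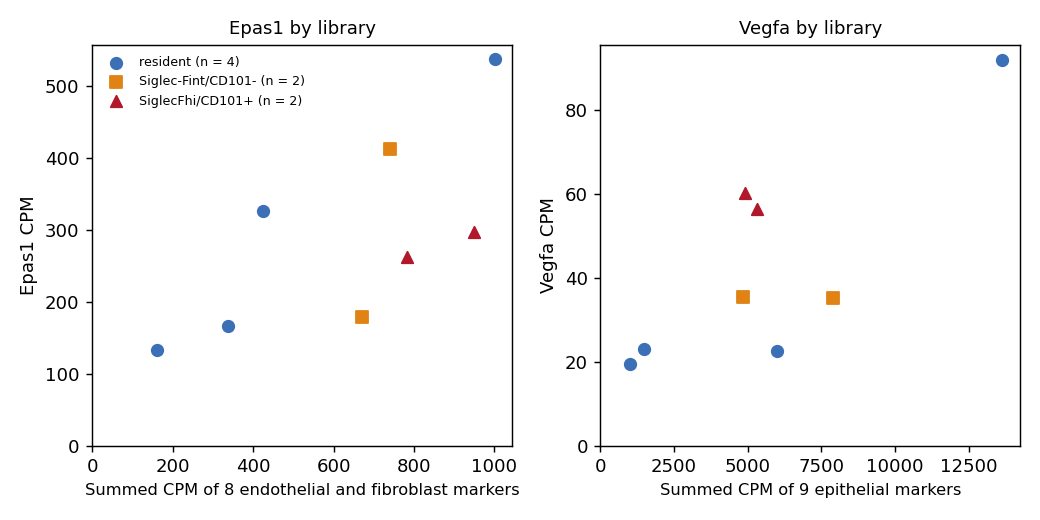
Epas1 CPM against the summed CPM of 8 endothelial and fibroblast markers, and Vegfa CPM against the summed CPM of 9 epithelial markers; each point is 1 library, and colour and shape give the group. Resident replicate 5 is highest on all 4 axes, with 537 CPM of Epas1 and 91.9 CPM of Vegfa.

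The 2 libraries of a subset often disagreed. Among genes with at least 10 counts over both libraries, 17 of 31 in Siglec-Fint/CD101- libraries differed by over 4-fold or had 1 library at 0. The median difference was 4.92-fold, counting genes with 1 library at 0 as the widest. In SiglecFhi/CD101+ libraries it was 7 of 25, with a median of 2.34-fold counted the same way. Examples chosen after their values were seen are Ndrg1, a stress-induced gene with 1 and 131 counts in the Siglec-Fint/CD101- libraries, and Ddit4, an inhibitor of mTORC1 signalling with 72 and 0 counts in the SiglecFhi/CD101+ libraries.

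Other genes of these pathways were read from 5 lists of 81 genes, of which 65 were tested and 0 passed edgeR's test in any comparison. At an unadjusted p under 0.05 in SiglecFhi/CD101+ against resident libraries (background 13.1% lower and 3.65% higher), 3 of 15 glycolysis branch and isoenzyme genes were lower and 1 higher, and 1 of 8 pentose phosphate genes, 1 of 11 genes of pyruvate entry, 5 of 11 HIF pathway genes and 1 of 20 further hypoxia targets were lower. In Siglec-Fint/CD101- against resident libraries (13.8% and 1.9%) the same lists, in that order, had 5, 1, 1, 2 and 2 lower and 1, 0, 0, 0 and 0 higher. Between the subsets (7.96% and 9.98%) they had 2, 1, 1, 4 and 1 lower and 2, 2, 1, 1 and 1 higher. G6pdx, which opens the pentose phosphate pathway, was at 40.9, 31.0, 65.1 and 67.8 CPM in resident, 54.3 and 84.7 CPM in Siglec-Fint/CD101- and 3.17 and 1.21 CPM in SiglecFhi/CD101+ libraries. The SiglecFhi/CD101+ values lay far below all others, at -4.52 ± 1.09 SE, adjusted p = 0.121 against resident and -4.96 ± 1.16 SE, adjusted p = 0.171 against Siglec-Fint/CD101- libraries; DESeq2 gave 0.000269 for the first, and edgeR 0.0471 and 0.0490 without Siglec-Fint/CD101- replicate 1 or 2. Fam162a, a HIF-responsive mitochondrial gene, was at 0.832, 20.7, 27.1 and 31.0 CPM in resident, 156 and 12.4 CPM in Siglec-Fint/CD101- and 0 and 0 CPM in SiglecFhi/CD101+ libraries. The SiglecFhi/CD101+ libraries had 0 counts, and resident replicate 3, with 5 counts, lay below the level of 3 counts there (1.58 and 1.82 CPM). Of the 236 Siglec-Fint/CD101- counts 216 were in replicate 1. The adjusted p against resident was 0.165, and 0.0123 by DESeq2.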

How the data were processed

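RNA of 8 eosinophil libraries was measured by CEL-Seq. The deposited values are raw counts per Ensembl gene, made by the authors. Per the submitters' processing notes the tools were TopHat2 2.1.0, Bowtie2 2.2.6, HTSeq 0.6.1, cutadapt 1.10, Trim Galore, FastQC 0.11.5 and DESeq2 1.28.0. The genome build, annotation and use of molecular identifiers have no statement in the labels. Symbols and gene positions are those of GENCODE M21 (GRCm38), matched by Ensembl ID for 54409 of 54446 genes; Aldoa has a further ID with 0 counts. Groups came from the sample titles.

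Counts were fitted with edgeR 4.0.16 (R 4.3.3; TMM, filterByExpr, robust quasi-likelihood test) in one model of group means over all libraries, with p-values adjusted over 11828 genes by Benjamini-Hochberg. The script was tested on simulated data. SE is the log2 fold change over the square root of F. A group at 0 counts was set to 3 counts for bounds. Alternatives (19, including DESeq2 1.42.0, limma-voom 3.58.1, other scalings and filters, thinning and leaving out each library) are in the closing section. The members and lists were chosen with earlier results of these data known. Values per library are given for the 6 members of smallest p in a comparison, the 8 highest by CPM, Hif1a and isoenzyme families, with up to 4 other pathway genes per comparison.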

Additional observations from a re-analysis of the deposited data

Results flagged for a closer look

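Among the 4 resident libraries, 5 of the 37 genes with counts had 1 library far from the rest by Dixon's ratio. Chance gives this for about 1 gene in 20 where values are normally distributed. Sparse counts with zeros do not meet that condition, so 5 of 37 cannot be read as an excess. Pfkm, the muscle phosphofructokinase, was at 9.13 CPM in resident replicate 6 and at 0 to 0.628 CPM in the others. The other four stood out in resident replicate 5. Egln3 was at 24.1 CPM there against 0 to 2.65 CPM, Vegfa at 91.9 against 19.3 to 23.0 CPM, and Bnip3l at 89.1 against 51.5 to 57.8 CPM. Adm, with 6 counts, was at 0.419 CPM there and at 0 in the others, which by itself sets its ratio to 1. Replicate 5 also had the highest summed epithelial (13629 CPM) and endothelial and fibroblast markers (1002 CPM) and the lowest mitochondrial share (38.6%), and their part in these values was not tested.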

How the results depend on the processing

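The 3, 7 and 1 genes called in SiglecFhi/CD101+ against resident, Siglec-Fint/CD101- against resident and SiglecFhi/CD101+ against Siglec-Fint/CD101- libraries depended on the processing, and the cause was not tested. In SiglecFhi/CD101+ against resident libraries there were 7 with library totals alone, 370 without a filter, 905 with DESeq2 and 1 with the compared groups alone. In Siglec-Fint/CD101- against resident libraries there were 3 with library totals, 136 without a filter, 1 with the filter of 20 counts in 2 libraries, 649 with DESeq2, 2 with limma-voom, 4 after thinning and 0 with the compared groups alone. Between the subsets there were 85 without a filter, 1269 with DESeq2, 0 with limma-voom, 2 after thinning and 0 with the compared groups alone. Leaving out 1 library gave 1 to 133, 0 to 9 and 0 to 2; the first rose to 131 and 133 without Siglec-Fint/CD101- replicate 1 or 2, when more genes passed the filter. Of the glycolysis and hypoxia genes DESeq2 called 2, 1 and 3, and leaving out 1 library gave 0 to 1, 0 to 0 and 0 to 0.

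The glycolytic median in SiglecFhi/CD101+ against resident libraries (-0.44) became 0.03 with RLE and with DESeq2, -1.11 with library totals, -0.72 with limma-voom and -0.22 after thinning. That in Siglec-Fint/CD101- against resident libraries (-0.17) became 0.20 with RLE and with DESeq2, 0.15 with upper-quartile scaling, -0.99 with library totals, -0.42 without a filter and -0.84 with limma-voom. Between the subsets (-0.64) it became -0.33 with limma-voom and -0.24 with the compared groups alone. The hypoxia median in SiglecFhi/CD101+ against resident libraries (-1.70) became -1.23 with RLE and with DESeq2 and -2.25 with library totals, and that in Siglec-Fint/CD101- against resident libraries (-0.34) became -1.44 with library totals and -0.81 with limma-voom. The median of all genes also moved, in SiglecFhi/CD101+ against resident libraries from -0.72 to -0.26 with RLE and -1.46 with library totals. With 1 library left out the glycolytic medians ranged from -0.94 to -0.28, -1.34 to 0.07 and -0.72 to -0.17, and the hypoxia medians from -2.93 to -1.31, -0.93 to 0.56 and -0.99 to 0.60. The median of all genes moved further. Against resident it was -3.15 and -2.12 for SiglecFhi/CD101+ without its replicate 1 or 2. For Siglec-Fint/CD101- it was -3.29 and -4.42 without its replicate 1 or 2. More genes passed the filter in these fits. Of the fold changes of named genes, 512 kept their direction and side of the threshold, 25 passed it and 2 reversed: Egln1 in Siglec-Fint/CD101- against resident libraries (-1.11 without Siglec-Fint/CD101- replicate 1; range -1.11 to 3.06) and Aldoc between the subsets (6.07 without Siglec-Fint/CD101- replicate 2; range -5.51 to 6.07).

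The deviations of same-numbered subset libraries from their group means correlated at r = 0.0066. With 2 libraries in a subset, the deviations of replicate 2 mirror those of replicate 1. This value therefore cannot decide whether the numbers pair the libraries. With the replicate block the subsets gave 0 genes called and a glycolytic median of -0.30. Depth limits Hif1a, Slc2a1, Egln1 and Bnip3, which rest on 0 to 34 counts in some subset libraries.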

Other observations

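Fbp1, the fructose bisphosphatase of gluconeogenesis, was at 0, 0, 0 and 0 CPM in resident, 44.9 and 17.9 CPM in Siglec-Fint/CD101- and 36.4 and 0 CPM in SiglecFhi/CD101+ libraries. It had 0 counts in all 4 resident libraries and in 1 SiglecFhi/CD101+ library. Both Siglec-Fint/CD101- libraries lay above the resident ones; the adjusted p was 0.162 in Siglec-Fint/CD101- and 0.111 in SiglecFhi/CD101+ against resident libraries, so it did not pass edgeR's test. DESeq2 gave 0.000346 and 0.000349. The SiglecFhi/CD101+ difference rests on replicate 1, with 69 counts against 0 in replicate 2. Its log2 fold change ranged from 0 to 11.02 over the fits.

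Of the 11 tested HIF pathway genes beside the regulators above, 8 lay below every resident library in both SiglecFhi/CD101+ libraries (background 27.4%) and 1 above (6.78%). Among the 8, Vhl, Hif1an, Egln2, Cul2 and Cited2 had 0 counts in both SiglecFhi/CD101+ libraries. For Cul2, resident replicate 4, at 0.235 CPM, lay below the level of 3 counts there (1.58 and 1.82 CPM), so depth limits its placing. The lowest resident values of Egln2, Hif1an and Ep300, also among the 8, were 2.58, 2.74 and 2.99 CPM. They lay little above that level, so depth weakens these placings too. In Siglec-Fint/CD101- libraries 6 of 11 lay below (29.3%) and 1 above (4.46%). The gene above in SiglecFhi/CD101+ libraries was Arnt, the partner of HIF alpha, named after its values were seen. It was at 21.8, 23.1, 6.98 and 20.8 CPM in resident, 0.724 and 5.56 CPM in Siglec-Fint/CD101- and 40.6 and 40.1 CPM in SiglecFhi/CD101+ libraries. Its SiglecFhi/CD101+ values lay above and its Siglec-Fint/CD101- values below every resident one, with adjusted p of 0.616 and 0.349. Pygb, brain glycogen phosphorylase, was at 14.97, 17.1, 39.4 and 13.2 CPM in resident, 0 and 5.56 CPM in Siglec-Fint/CD101- and 0 and 0 CPM in SiglecFhi/CD101+ libraries, with both SiglecFhi/CD101+ libraries at 0. Hmox1, heme oxygenase, was at 8.15, 15.3, 13.8 and 15.1 CPM in resident, 0 and 0 CPM in Siglec-Fint/CD101- and 1.58 and 0.607 CPM in SiglecFhi/CD101+ libraries, and every subset library lay below every resident one. Neither Pygb nor Hmox1 passed edgeR's test in any comparison. The background for lying below every resident library was 27.4% for SiglecFhi/CD101+ and 29.3% for Siglec-Fint/CD101- libraries.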
